A study of Saccharomyces cerevisiae with 54 samples.

Results

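The proteasome subunit genes are 32 *Saccharomyces cerevisiae* genes for subunits of the proteasome, a list that leaves out the small lid subunit *SEM1*. They were taken as a list of symbols and located in a gene table, among 6002 nuclear protein-coding genes in all. The core particle accounts for 14 of them, 7 in its alpha ring (*SCL1*, *PRE8*, *PRE9*, *PRE6*, *PUP2*, *PRE5*, *PRE10*) and 7 in its beta ring (*PRE3*, *PUP1*, *PUP3*, *PRE1*, *PRE2*, *PRE7*, *PRE4*). The regulatory particle accounts for 18, 10 in its base (the ATPases *RPT1* to *RPT6* and *RPN1*, *RPN2*, *RPN10*, *RPN13*) and 8 in its lid (*RPN3*, *RPN5* to *RPN9*, *RPN11*, *RPN12*). The rule uses no measured value, although earlier results of these data were known when the list was drawn up.

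The proteasome is the protease that degrades ubiquitylated proteins in the nucleus and the cytosol. Its core particle is a barrel of stacked rings in which the beta subunits carry the peptidase sites and the alpha subunits form the gate, while the regulatory particle that caps it binds the ubiquitin chain, removes it and unfolds the substrate with a ring of ATPases. In yeast these genes are scattered over the genome and are transcribed together under the control of the activator Rpn4, itself a substrate of the proteasome. Hda1 is the catalytic subunit of the histone deacetylase complex Hda1C, its Arb2 domain lies at the C-terminus, and Tup1 is a general corepressor with which Hda1C is known to interact.

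Chromatin immunoprecipitation sequencing (ChIP-seq) was performed with antibodies against acetylated histone H4 (H4ac) and acetylated histone H3 (H3ac) in wild type (strain YSB787), cells deleted for *HDA1* (hda1-/-, strain YTK113, written *hda1∆*) and in cells deleted for *TUP1* (tup1-/-, strain YTK202, written *tup1∆*). An anti-myc antibody was used in untagged cells (YTK304), in cells whose Hda1 carries 18 myc copies (YTK376, Hda1-myc) and in cells with the same tag on an Hda1 that lacks the Arb2 domain (YTK383, Hda1(arb2∆)-myc). All strains were grown in YPD, a rich glucose medium, at 30 °C. There were 2 libraries per strain and antibody in a set labelled with *S. pombe* spike-in chromatin and 2 in a set without it, with H3ac in the latter only, so that 30 of the 54 samples have a peak list. The study describes its ChIP-seq experiments as independent, but no source used here says that the libraries of a group came from separate cultures, so their spread may be technical. The measurement is the share of a region that lies under the peaks the authors called, either of the coding region (start codon to stop codon, introns included) or of a window of 400 bp before the start codon. Peaks mark where the antibody signal exceeds its control, so the share tells how far along a gene the mark or protein was called and not how high it was.

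The lists of H4ac and H3ac held 2203 to 3197 peaks each, and in these groups 91.3% to 97.4% of the peaks of 1 library overlapped a peak of the other. Hda1-myc libraries held 846 to 983 peaks. In the spike-in set the untagged libraries stood apart from each other (235 and 10 peaks), as did those of Hda1(arb2∆)-myc (628 and 59 peaks), and results that touch them are given by library. H4ac peaks covered 14.7% to 19.1% of *HDA1* in the 4 wild-type libraries and 0% in the 4 *hda1∆* libraries, and they covered 2.66% to 7.28% of *TUP1* in wild type and 0% in the 4 *tup1∆* libraries. The read depth of the libraries is unknown, because the lists hold no counts.

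In wild-type cells nearly every proteasome gene carried an H4ac peak over its start. In the spike-in set 31 of the 32 start codons lay under an H4ac peak in both libraries (96.9%, against 61.2% of the 6002 genes). H3ac, which was measured only without spike-in, covered 30 of 32 (93.8%, against 47.0%). By H4ac in the spike-in set the 400 bp upstream were covered to 88.4% ± 1.34 (SD, n = 2 libraries) on average over the members and to 57.1% ± 0.51 over all genes. At 18 of the 32 members (5 core and 13 regulatory) the next gene upstream lies less than 400 bp away, so the window reaches into it. How often this holds over all genes was not counted. The next gene upstream is divergent at 21 members, against 3096 of 5992 genes. Coding regions were covered to 63.6% ± 1.01 against 42.3% ± 0.81. In the set without spike-in the mean for the coding regions of the members was 64.4% ± 0.32 for H4ac and 42.6% ± 0.89 for H3ac, against 42.0% ± 0.17 and 30.6% ± 0.15 for all genes. The strongest peak touching each member had a median percentile of 73.3 and 75.7 for fold enrichment among all H4ac peaks of the spike-in wild-type libraries. *RPN11*, the gene of the deubiquitylating enzyme of the lid, carried the highest of them with folds of 3.97 and 3.91 (VI:152502-154068 in the first library).

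**Figure D1:**
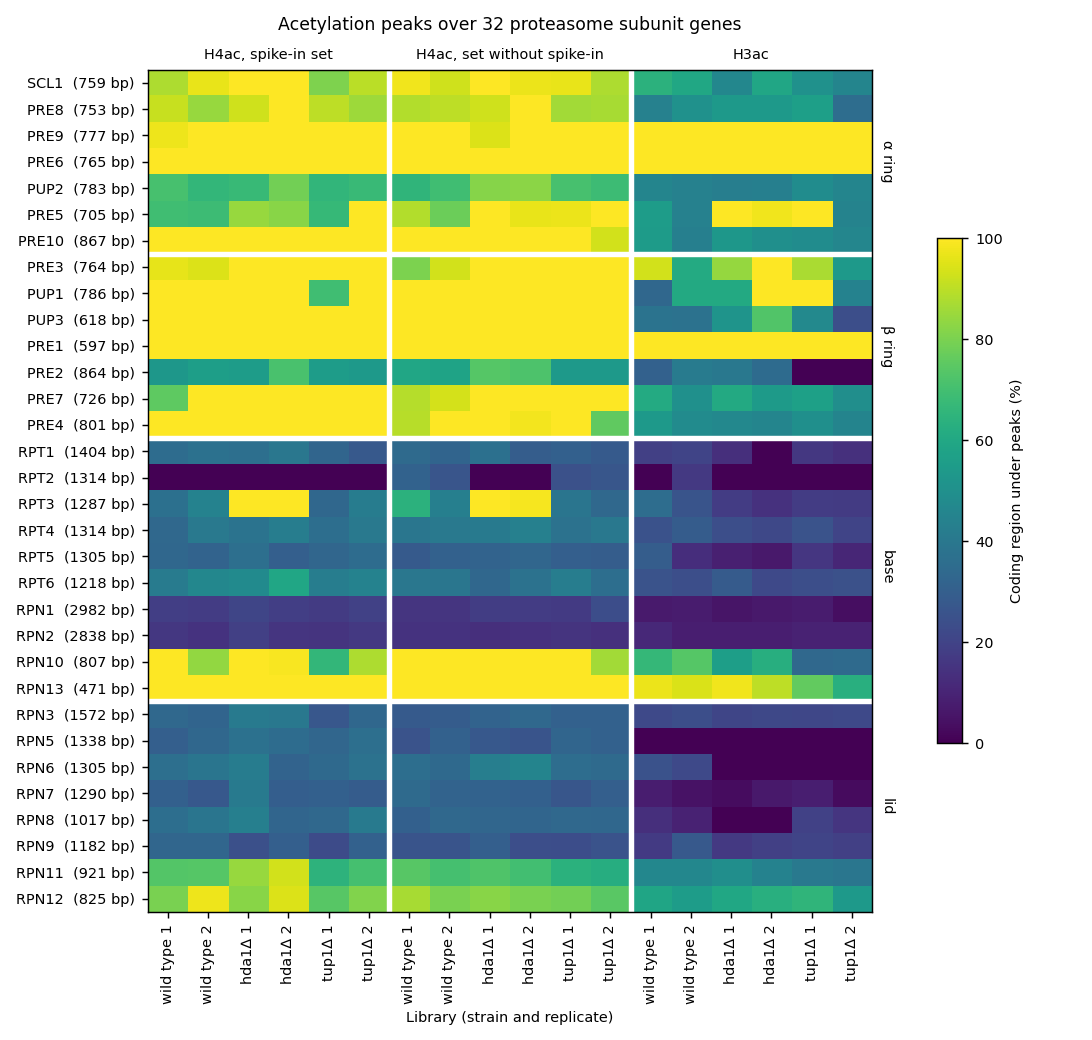
Share of each coding region under H4ac or H3ac peaks (colour, %) in 18 libraries (columns, strain and replicate) for the 32 genes (rows, with length in bp). In the H4ac columns the core particle rows are brighter than most rows of the regulatory particle, the H3ac columns are darker on average in both, and *RPT3* turns from dark to bright in the *hda1∆* H4ac columns of both sets.

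The core and the regulatory particle differed in how much of the coding region was covered. In the wild-type H4ac libraries of the spike-in set the 14 core genes averaged 88.7% and 90.5%, and the 18 regulatory genes 42.8% and 43.9%, a difference of 46.2 points ± 0.43 (SD, n = 2). The difference without spike-in was 46.3 ± 2.11 points for H4ac and 33.1 ± 1.51 points for H3ac. Within the particles the differences were small beside this one, with 88.1% ± 0.18 for the alpha ring and 91.1% ± 2.68 for the beta ring, and 41.6% ± 0.01 for the base and 45.5% ± 1.83 for the lid (spike-in set).

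The difference went together with gene length. Core genes were 597 to 867 bp long, whereas regulatory genes ranged from 471 to 2982 bp with a median of 1297.5 bp. Short regulatory genes were covered as core genes were. *RPN13* (471 bp, a ubiquitin receptor) was covered to 100% in both spike-in libraries, and *RPN10* (807 bp, another ubiquitin receptor) to 100% and 83.8%. *RPN12* (825 bp) reached 79.8% and 97.3% and *RPN11* (921 bp) 73.4% and 73.6%. At the other end, the scaffold genes *RPN1* (2982 bp) and *RPN2* (2838 bp) were covered to 18.5% and 17.8% and to 16.4% and 14.8%. Over the first 500 bp of coding sequence the difference between the particles fell to 11.9 points (99.4% against 87.4%), a value that includes *RPT2*, which had no H4ac peak there. The 17 members over 500 and up to 1000 bp long averaged 88.7% ± 1.09 and all 1517 genes of that length 62.4% ± 1.06, while the 12 members over 1000 and up to 2000 bp averaged 32.7% ± 1.27 and the 2266 genes of that length 38.8% ± 1.03. Whole-gene coverage of the longer members was therefore not above that of other genes of their length, although 11 of these 12 had the start codon under a peak. Particle and length cannot be told apart for coding regions over 1000 bp, since no core gene is that long.

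**Figure D2:**
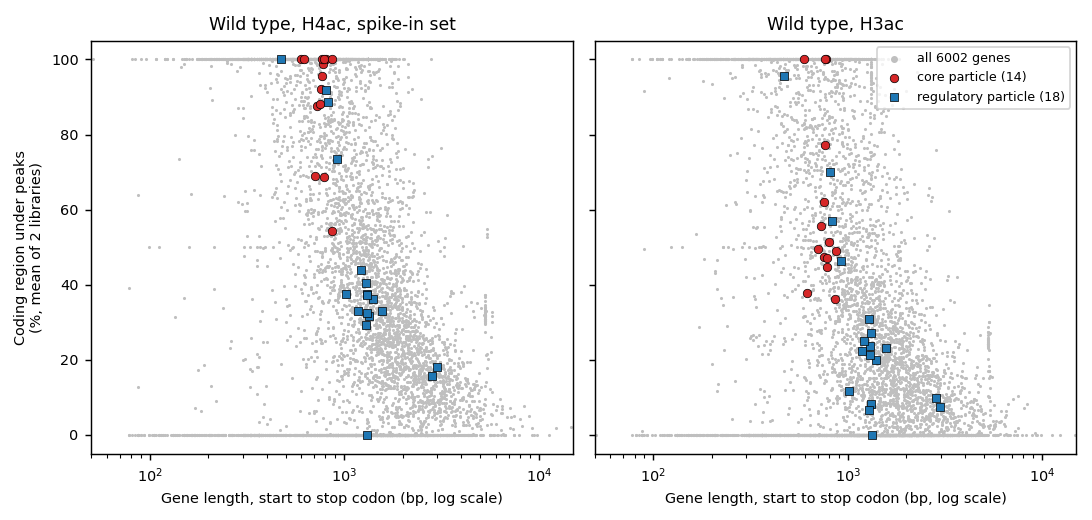
Share of the coding region under peaks in wild type (mean of 2 libraries, %) against gene length (bp, log scale) for all 6002 genes (grey), the 14 core genes (red circles) and the 18 regulatory genes (blue squares), for H4ac in the spike-in set and for H3ac. Coverage falls with length over all genes and over the regulatory genes. The core genes span only 597 to 867 bp and show no steady fall, and the short regulatory genes sit among them.

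Measured from the start codon, the peak ended at a median of 475 and 521 bp in the 17 covered regulatory genes and at 746.5 and 1412.5 bp in the core genes (H4ac, wild type, spike-in set). These are ends of whole merged peaks, which may run on into neighbouring genes. As core genes are at most 867 bp long, the value of 1412.5 bp lies past their stop codons and is not a distance along them. The stop codon lay under a peak in both libraries in 6 of 14 core genes and in 2 of 18 regulatory genes. For H3ac the median ends were 439.5 and 384 bp in the core and 331 and 292 bp in the regulatory genes. *PRE6* and *PRE1*, an alpha and a beta subunit, were covered to 100% by H4ac and H3ac in all 18 libraries. At *PRE6* the wild-type H4ac peak ran from position -1147 to 1319 relative to the start codon (XV:254190-256656).

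**Figure D3:**
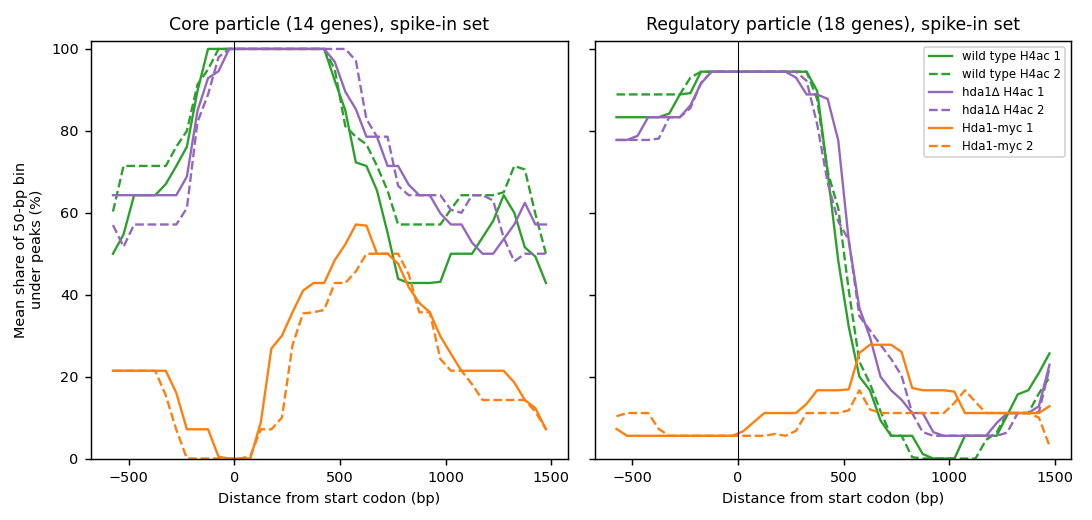
Mean share of 50-bp bins under peaks (%) against distance from the start codon (bp) for the 14 core genes and the 18 regulatory genes in the spike-in set, with 1 line per library for wild-type H4ac, *hda1∆* H4ac and Hda1-myc. H4ac is at its plateau at the start codon and falls beyond it, and Hda1-myc is at 0% in the bin that starts at the start codon of the core genes and highest 550 to 800 bp downstream of it.

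Whether the loss of Hda1 changes H4 acetylation over these genes was asked by comparing *hda1∆* with wild type. A gene was called as gaining or losing where each mutant library differed from each wild-type library by 10 points or more in the same direction. No p-value is attached to this rule, since an exact permutation test of 2 against 2 cannot go below 0.33. Over all 6002 genes H4ac coverage of coding regions shrank in *hda1∆*, with 4.27% of genes gaining and 10.9% losing in the spike-in set. This is the extent of called peaks and not the level of H4ac. For the level, scaled by spike-in and relative to total H3, the study reports a strong rise in *hda1∆* within its more active genes. The median fold of all peaks was 2.02 and 1.97 in wild type and 1.71 and 1.73 in *hda1∆*. Why extent and level differ was not tested. Of the proteasome genes 3 of 32 gained coverage (9.38%) and none lost it. Their mean coverage was 69.0% ± 0.63 against 63.6% ± 1.01 in wild type, while the mean of all genes went from 42.3% ± 0.81 to 38.5% ± 0.52. Coverage was higher in *hda1∆* at 22 members and lower at 3, against 1247 and 2514 of all genes, and the median change was 1.78 points over the members and 0 over all genes. Without spike-in 3 members gained against 4.42% of all genes, and 1 lost against 12.0%, with 16 members higher and 9 lower. Losses were possible for 31 and 32 of the members in the 2 sets, but gains only for 18 and 19, because at least 1 wild-type library already covered the others to more than 90%.

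*RPT3*, an ATPase of the base on chromosome IV, moved most. In the spike-in set H4ac peaks covered 36.8% and 44.2% of its coding region in wild type, 100% in both *hda1∆* libraries, and 33.4% and 42.1% in *tup1∆*. Without spike-in the wild-type values were 64.2% and 43.2%, those of *hda1∆* 100% and 98.7%, and those of *tup1∆* 38.8% and 33.8%. No *hda1∆* library overlapped a wild-type or *tup1∆* library in either set. In wild type a peak over the promoter and the start ended 441 and 524 bp into the gene and a second one began 1255 and 1243 bp from the start codon. In *hda1∆* a single peak spanned the whole gene (IV:1259944-1263484 in the first library). *RPT3* is 1287 bp long, and the next gene in the same direction, *SXM1*, lies 356 bp beyond it. The *hda1∆* peak took in 1804 and 1806 bp from the start codon on, so it ran past the start of *SXM1*. What became covered within *RPT3* was the stretch between the 2 wild-type peaks. The difference was 59.5 points in the spike-in set, with an adjusted p of 0.0108 in limma, and 45.6 points in the other set, where the limma adjusted p was 0.0544. Over the first 500 bp, which was already covered, the difference was 5.8 and 0 points. H3ac moved the other way at *RPT3*, from 35.7% and 25.9% to 17.9% and 14.3%, within the margin.

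Of the core genes, *PRE5* (an alpha subunit) was covered to 69.4% and 68.4% in wild type and to 84.7% and 82.3% in *hda1∆* in the spike-in set, a gain of 14.6 points (limma adjusted p = 0.0410). Without spike-in it went from 88.4% and 77.5% to 100% and 96.7%, below the margin for 1 pair of libraries. *PUP2*, an alpha subunit, and *PRE2*, the beta subunit with chymotrypsin-like activity, were called in the set without spike-in. *PUP2* rose from 65.4% and 69.5% to 81.7% and 82.6%, and *PRE2* from 59.1% and 58.1% to 73.5% and 72.0%, with limma adjusted p of 0.0327 and 0.0185. In the spike-in set the groups of both genes overlapped, with *PUP2* at 71.0% and 66.2% against 67.3% and 78.5% and *PRE2* at 52.9% and 55.9% against 55.3% and 71.2%. *RPN11* was called in the spike-in set, from 73.4% and 73.6% to 84.6% and 93.2% (limma adjusted p = 0.134), and was level in the other set (73.8% and 70.4% against 72.6% and 69.6%). *RPT3* was thus the only member to gain in both sets.

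*RPT2*, another ATPase of the base, had no H4ac peak in any of the 6 libraries of the spike-in set. In the other set a weak peak covered 31.5% and 26.4% of it in wild type and 24.9% and 26.6% in *tup1∆*, with none in *hda1∆*. Its folds of 1.47 and 1.31 ranked at percentiles 16.5 and 3.04 of all peaks of the wild-type libraries, and the loss disappeared when only peaks with a −log10 q of at least 5 were kept.

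**Figure D4:**
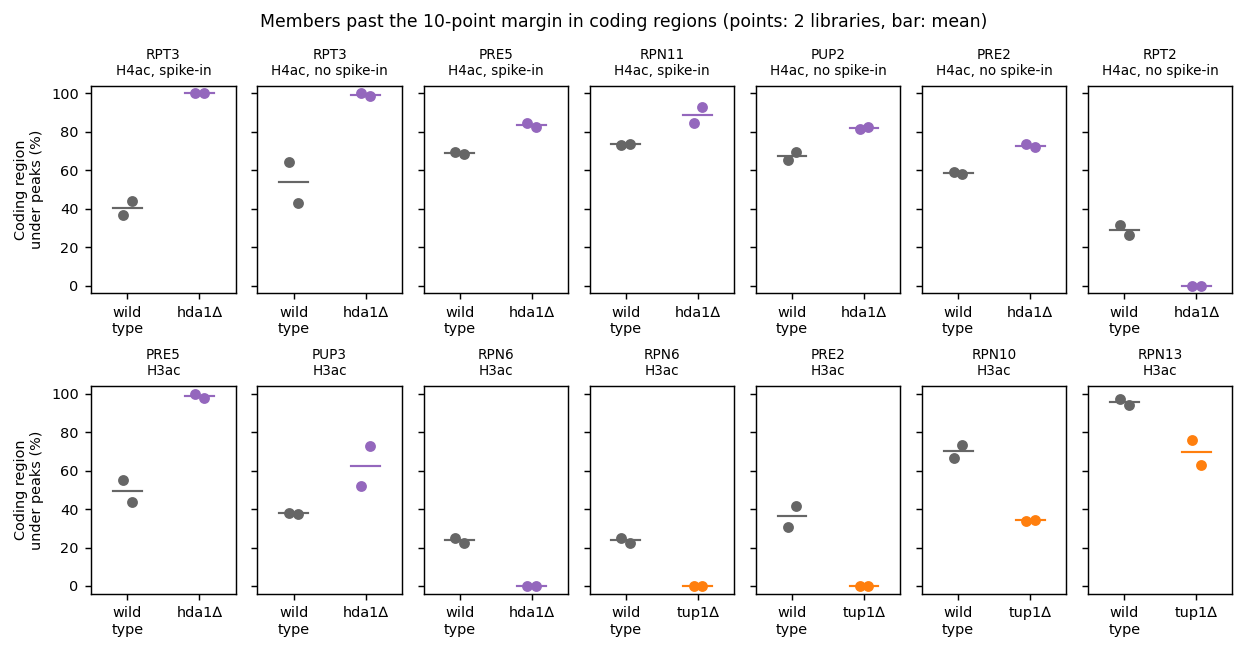
Share of the coding region under peaks (%) in the 2 wild-type and 2 mutant libraries (points, with the mean as a bar) for each member and comparison past the 10-point margin. *RPT3* reaches 100% in *hda1∆* H4ac in both sets, and *RPN6* drops to 0% for H3ac in both mutants.

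In *tup1∆* no member gained or lost H4ac in its coding region in either set. Over all genes 7.66% gained and 5.48% lost in the spike-in set, and 8.23% and 5.33% in the other. limma called no member either, although 4 reached an unadjusted p under 0.05 without spike-in (0 with it). Member means were 62.4% ± 3.25 in *tup1∆* against 63.6% ± 1.01 in wild type with spike-in, and 63.7% ± 1.34 against 64.4% ± 0.32 without. Single genes did vary between libraries, as *PRE5* did in the spike-in set with 66.8% and 100%.

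Upstream of the start codon fewer genes kept their H4ac peaks in *hda1∆*. Losses were called for 12.8% of all genes and gains for 1.77% in the spike-in set, where 2 of 32 members lost (6.25%, *PUP2* and *RPN3*) and none gained. In the set without spike-in 14.9% of all genes lost and 1.55% gained, against 3 members that lost (9.38%, *PRE8*, *PUP2* and *PUP1*) and none that gained. Only 6 members with spike-in and 9 without had room to gain upstream, in either mutant. All 31 start codons covered in wild type were covered in both *hda1∆* libraries too, while the share over all genes went from 61.2% to 50.2%. Only *PUP2* was called in both sets. Its upstream window went from 100% and 100% to 47.5% and 45.2% with spike-in (limma adjusted p = 0.00282), and from 66.8% and 47.5% to 35.8% and 35.2% without (adjusted p = 0.192 in limma). *PUP1*, the gene of the beta subunit with trypsin-like activity, went from 100% and 100% to 29.2% and 25.2% in the set without spike-in (limma adjusted p = 0.00198), but it was at 56.8% and 100% in wild type and 100% and 100% in *hda1∆* with spike-in. The *RPN3* window went from 77.0% and 100% to 56.5% and 55% with spike-in (limma adjusted p = 0.18), and that of *PRE8* from 51.0% and 48.8% to 37.8% and 29.8% without (limma adjusted p = 0.0852).

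In *tup1∆* no member was called in the spike-in set, against 9.30% of all genes gaining and 3.90% losing. Without spike-in *PUP2* gained, from 66.8% and 47.5% to 77.5% and 82.5% (limma adjusted p = 0.21), as did *PRE7*, a beta subunit, from 31.8% and 33.0% to 43.5% and 50% (limma adjusted p = 0.0829). *RPN2* lost, from 100% in both libraries to 72.5% and 73.8% (limma adjusted p = 0.00631). The background there was 9.75% gaining and 3.20% losing.

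H3ac behaved differently from H4ac at these genes. In *hda1∆* 11.3% of all genes gained H3ac in the coding region and 2.65% lost it, and mean coverage rose from 30.6% ± 0.15 to 35.4% ± 0.36. Over the members the mean was 42.6% ± 0.89 in wild type and 43.0% ± 1.07 in *hda1∆*, and the mean of the core rose while that of the regulatory particle fell. Core genes averaged 61.3% ± 1.74 in wild type and 69.7% ± 3.59 in *hda1∆*, and regulatory genes 28.1% ± 0.23 and 22.2% ± 0.90. The median change over the core was only 1.64 points against 8.45 for the mean. Beside *PRE5* and *PUP3*, which are given next, *PUP1* went from 33.6% and 60.6% to 60.6% and 100%, with no call. Of the 18 regulatory genes 14 changed downward, 3 upward and 1 not at all, mostly within the margin, with a median of −3.12 points against 0 over all genes.

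Gains of H3ac were called for *PRE5* and *PUP3*, a beta subunit, and 1 loss for *RPN6*. Without wild-type library 2 there were 4 of each, and at equal covered length 1 gain and 5 losses. *PRE5* went from 55.3% and 43.8% to 100% and 97.7% (limma adjusted p = 0.0267), through a peak that reached 3883 bp past its start codon in 1 library and 688 bp in the other. *PUP3* went from 38.0% and 37.5% to 51.9% and 72.8% (limma adjusted p = 0.231), and this gain turned to a fall of 11.8 points when the libraries were compared at equal covered length. *RPN6*, a scaffold subunit of the lid, lost its only H3ac peak in both mutants: 25.2% and 22.2% of the gene was covered in wild type (IV:286367-286738 in the first library) and none in the 4 mutant libraries (limma adjusted p = 0.0165 in *hda1∆* and 0.0142 in *tup1∆*). H4ac over *RPN6* showed no such loss, at 36.3% and 34.2% in wild type and 42.6% and 45.2% in *hda1∆* of the same set. *RPN5*, another lid subunit, had no H3ac peak in any of the 6 libraries, and H4ac covered 25.7% and 31.2% of it in wild type.

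In *tup1∆* 10.3% of all genes gained H3ac in the coding region and 4.97% lost it, whereas no member gained and 4 of 32 lost (7 without wild-type library 2, when 1 gained). Besides *RPN6* these were *PRE2*, *RPN10* and *RPN13*. *PRE2* went from 30.9% and 41.5% to 0% in both libraries (limma adjusted p = 0.0359), and its *hda1∆* values of 39.9% and 35.1% lay within the wild-type range. *RPN10* went from 66.4% and 73.5% to 33.8% and 34.6% (limma adjusted p = 0.0195), and *RPN13* from 97.0% and 94.3% to 76.0% and 63.1% (limma adjusted p = 0.0936). The second *tup1∆* H3ac library covered the members less than the first (33.9% against 42.1%).

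Upstream, no member gained H3ac in either mutant, against 6.76% of all genes in *hda1∆* and 9.15% in *tup1∆*, and 12 of the 32 had room to gain. In *hda1∆* 4 members lost it (12.5%, against 7.33% of all genes), namely *PRE5*, *PRE2*, *RPN3* and *RPN8*. The count was 8 at equal covered length and 10 without *hda1∆* library 1. *PRE5* went from 33.2% and 29.2% to 14% and 15% (limma adjusted p = 0.0578), and *RPN3* from 34% and 29.5% to 7.25% and 18% (limma adjusted p = 0.156). *RPN8*, a lid subunit, went from 56.8% and 68.8% to 0% in both libraries (limma adjusted p = 0.0199). In *tup1∆* 4 members lost it as well (against 6.91%), namely *PRE8*, *PRE2*, *RPN13* and *RPN3*, and 7 did without *tup1∆* library 1. *RPN13* went from 100% and 92.2% to 6.25% and 13.8% (limma adjusted p = 0.00730), and *PRE2* from 20.0% and 29.8% to 0% in all 4 mutant libraries (limma adjusted p = 0.078 in *hda1∆* and 0.07 in *tup1∆*). *PRE8* went from 38% and 33% to 16.5% and 13.2%, with a limma adjusted p of 0.0462, and *RPN3* to 19% and 19.5%, with one of 0.082. Both mutants were compared with the same wild-type libraries.

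Where Hda1 itself sits was asked with the anti-myc libraries. In the spike-in set at least 50% of the coding region lay under Hda1-myc peaks in both libraries in 6 of 32 members (18.8%, against 8.53% of all genes). The core genes *PRE9*, *PRE6*, *PRE3*, *PRE1* and *PRE7* were 5 of these and the lid gene *RPN3* the sixth. Coverage was 69.1% and 87.6% for *PRE9*, 59.1% and 60.5% for *PRE6* and 81.3% and 68.3% for *PRE3*. It was 72.9% and 60.1% for *PRE1*, 80.7% and 64.7% for *PRE7* and 74.0% and 57.0% for *RPN3*. In the set without spike-in no member passed, against 7.15% of all genes. The Hda1-myc peak lists of that set end at a smaller q. Their largest q was 0.00506 and 0.00322, against 0.027 and 0.0411 with spike-in. How much of the difference between the sets comes from this was not tested. *PRE6*, *PRE1* and *PRE7* had a peak there in the first library only (48.9%, 41.9% and 70.7%), *PRE3* had 10.2% and 26.6%, and *PRE9* and *RPN3* had none. Peaks over at least part of the coding region in both libraries were present at 11 members in the spike-in set (34.4%, against 15.9% of all genes) and at 4 in the other (12.5%, against 12.6%), with *PRE3* and *RPT2* in both.

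The Hda1-myc peaks over the coding regions were weak. The strongest peak touching each member had a median fold of 1.36 and 1.39 in the spike-in libraries and a median percentile of 16.6 and 18.3 in its library, against a median fold of 2.05 and 2.2 over all peaks. The strongest lay outside the coding regions, as upstream of *PRE1* (V:176757-177568 in the first library, fold 3.64), where the peak within the gene had a fold of 1.75. Only *PRE3* and *PRE1* still passed when peaks with a −log10 q below 5 were left out, and 1 member (*RPN3*) when the gene table was moved 200 bp toward lower coordinates. Untagged libraries had no peak in the coding region of any member except *RPN5* (39.3% in the first spike-in library, 0% in the other 3), where Hda1-myc covered 52.8% and 33.9%. Hda1(arb2∆)-myc had a peak in 2 members, *RPN3* (57.6%) and *RPN5* (62.6%), both in the first spike-in library, and in none in the other 3 libraries. These 2 are 6.25% of the members, against 8.78% of all genes with such a peak in at least 1 spike-in library and 6.73% in the set without spike-in. None of *PRE9*, *PRE6*, *PRE3*, *PRE1* and *PRE7* had a peak in any of the 4 Hda1(arb2∆)-myc libraries.

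Hda1-myc peaks in the core coding regions lay toward the stop codon, whereas H4ac covered most of these regions and fell short only toward the stop codon. In the first and second spike-in Hda1-myc library 14 and 12 members had a peak in the coding region, and the part from midpoint to stop codon was covered more than the part from start codon to midpoint in 11 and 9 of them. These included every core gene with a peak (8 and 7), while the regulatory genes were split (3 of 6 and 2 of 5). The other 3 members in each library were covered more on the start-codon side. Of the 1130 and 1030 genes with a peak over the whole genome, 489 and 452 were covered more on the stop-codon side, 261 and 243 more on the start-codon side, and the rest equally. In untagged cells the stop-codon side led in 170 of 225 and 1 of 3 such genes with spike-in, and in 27 of 35 and 21 of 28 without. For Hda1(arb2∆)-myc it led in 63.6% and 68.6% with spike-in and in 68.9% and 76.7% without. Over all genes this lean was thus not particular to the full Hda1-myc. Means of Hda1-myc over the members were 15.7% and 11.6% on the start-codon side and 30.7% and 26% on the stop-codon side. For wild-type H4ac the order was the reverse, with 82.1% and 83.3% on the start-codon side and 43.6% and 45.3% on the other, and no member was covered more on the stop-codon side. At *PRE6* the Hda1-myc peak ran from 313 to 882 bp and from 302 to 848 bp after the start codon (XV:255650-256219 in the first library), and at *PRE1* from 162 to 842 bp and from 238 to 815 bp.

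**Figure D5:**
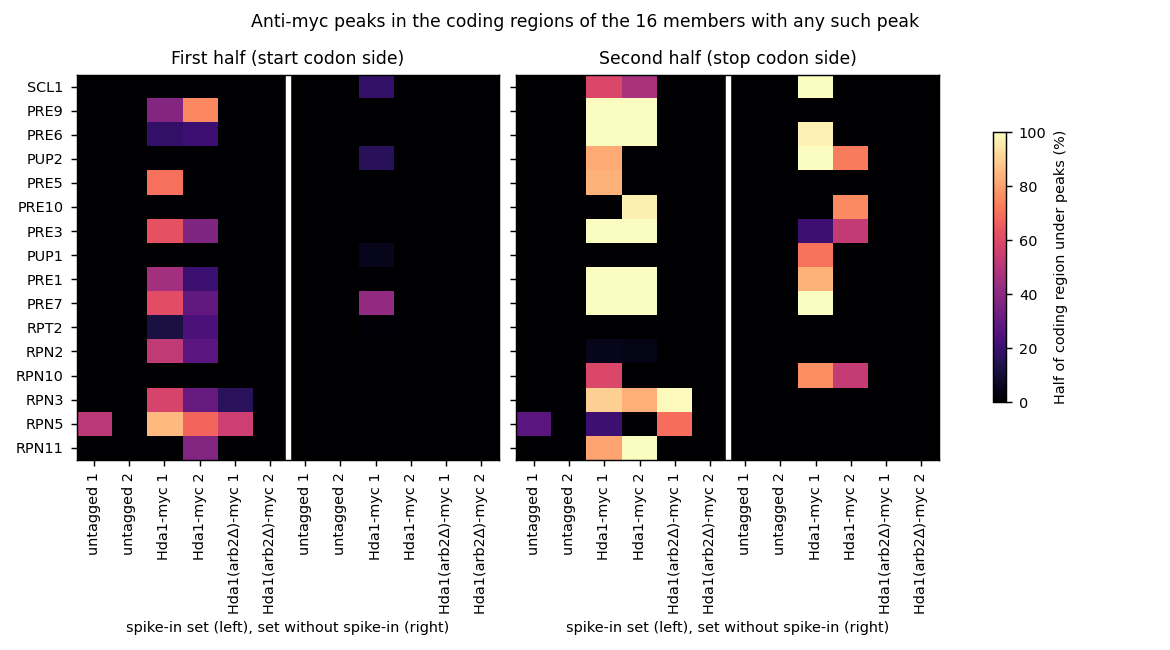
Share of the start-codon side and the stop-codon side of the coding region under anti-myc peaks (colour, %) in the 12 anti-myc libraries (columns) for the 16 members with any such peak (rows). Signal is mostly on the stop-codon side, in the Hda1-myc columns, and the set without spike-in (right of the white line) shows fewer members than the spike-in set.

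Upstream of the start codon Hda1-myc peaks were present in both libraries at 4 members (12.5%) in each set, near the shares of all genes (13.7% with spike-in and 11.7% without). The 50% threshold was passed in both libraries by *RPT2* alone in the spike-in set (3.12%, against 8.15% of all genes) and by *RPT2* and *PRE2* in the other (6.25%, against 6.15%). *RPT2* was covered to 100% in all 4 Hda1-myc libraries, with folds of 3.28 to 3.7, and the peak reached only 4 to 158 bp into the gene. In Hda1(arb2∆)-myc the same window was covered to 86.0% and 0% with spike-in and to 82.0% and 0% without, and no untagged library had a peak there. The summits lay at positions -230 to -265 relative to the start codon in the Hda1-myc libraries, and a tRNA gene (YNCD0006W) lies 193 bp before it. Of the 275 nuclear tRNA genes 270 were covered to at least 50% in each of the 4 Hda1-myc libraries and 266, 186, 233 and 5 in the Hda1(arb2∆)-myc libraries. The peak upstream of *PRE2* had its summit at positions -1028 to -1099 relative to the start codon, farther away than the start of its divergent neighbour *RPL11A*, a ribosomal protein gene that lies 600 bp away.

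*RPN4*, the activator of the proteasome genes, looked unlike most of its targets. It had no H4ac or H3ac peak in its coding region in any of the 18 acetylation libraries, whereas Hda1-myc covered 100% and 94.9% of it with spike-in and 65.2% and 97.6% without. Hda1(arb2∆)-myc covered 86.3% in the first spike-in library and 0% in the other 3, and untagged cells showed none. Upstream of *RPN4*, H3ac covered 81.0% in the first wild-type and 97.5% in the first *tup1∆* library, and 0% in the second of each. In wild type with spike-in 24.4% of all genes had no H4ac peak in the coding region, *RPT2* among them. *UBI4* of the pathway list had no acetylation peak there either, and Hda1-myc covered 71.5% and 42.4% of it with spike-in and 0% without. The 25 genes of the pathway list other than *RPN4* (*SEM1*, assembly factors, shuttles, Cdc48 and its cofactors, ubiquitin enzymes) include 6 with an acetylation call in the coding region. Of all 26, H4ac in the coding region was called as gained by 2 (7.69%, against 4.27% of all genes) and lost by 1 (3.85%, against 10.9%) in *hda1∆* with spike-in, and by 1 (against 4.42%) and 1 (against 12.0%) without. In *tup1∆* it was 2 and 1 in each set, against 7.66% and 5.48% of all genes with spike-in and 8.23% and 5.33% without. H3ac was called as gained by 1 and lost by 1 in *hda1∆* (against 11.3% and 2.65%) and by 2 and 1 in *tup1∆* (against 10.3% and 4.97%). Hda1-myc covered at least 50% of the coding region of 4 of the 26 with spike-in (*RPN4*, *SEM1*, *POC4*, *UBC4*, 15.4% against 8.53% of all genes) and of 3 without (*RPN4*, *POC4*, *UBC4*, against 7.15%). *SEM1* is only 270 bp long, and a tRNA gene (YNCD0026W) lies 305 bp before its start codon. With spike-in its 400 bp upstream were covered to 100% in both Hda1-myc libraries and to 67.0% and 0% in Hda1(arb2∆)-myc.

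*UFD1*, a Cdc48 cofactor, was called as gaining in the coding region in all 6 comparisons of H4ac and H3ac. It went from 59.5% and 57.7% to 100% in both *hda1∆* and both *tup1∆* libraries of the spike-in set. *RAD23*, a ubiquitin shuttle, gained H4ac in *hda1∆* only with spike-in (46.0% and 48.5% to 62.2% and 66.0%). *UBP6*, the ubiquitin protease of the proteasome, lost its H4ac peak in both mutants of that set (25.7% and 26.7% to 0%). Without spike-in no loss was called for it, as wild-type values were 22.1% and 24.9%, the *hda1∆* libraries had 0% and 15.3%, and both *tup1∆* libraries had 16.9%. *RPN14*, a base chaperone, went from 100% to 59.4% and 58.3% in *hda1∆* and to 58% and 54.9% in *tup1∆* in the set without spike-in and stayed at 100% in the other. *POC4*, a core chaperone, gained H4ac in *tup1∆* only, from 0% to 58.2% and 37.4% with spike-in and to 60% and 53.0% without. *SEM1*, the small lid subunit that is not among the 32, kept 100% for H4ac in all 12 libraries and lost H3ac, from 100% to 26.3% and 27.8% in *hda1∆* and to 48.9% and 0% in *tup1∆*.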

How the data were processed

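The 30 deposited narrowPeak lists were used as they stand; total H3 and input libraries were not analysed here. Per the labels' processing notes and the study's methods, the authors aligned reads with Bowtie2 2.2.5, filtered them with Picard 2.6 and bedtools 2.26.0 and called peaks with MACS2 2.1.0 at a q cutoff of 0.05. For each peak the authors deposited its position and a score, the fold enrichment over control (a ratio), a −log10 p-value and a −log10 q-value. The score and the −log10 p-value were not used; the fold served only to rank peaks within a library. The largest deposited q was 0.0474 in the spike-in set and 0.00987 in the other. The lists without spike-in thus stop well below the stated cutoff, and the sets were kept apart. The study's methods give the genome as R61-1-1 and the processing notes R64 and sacCer3. Genes came from the RefSeq table of R64; only peak positions, counted from 1, are printed, and moving all genes by 200 bp was tried. All 32 symbols and the 26 of the pathway list were found. The members and lists were chosen with earlier results of these data known.

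Peaks of a library were merged and the percent of each region covered was computed with Python 3.11.15, numpy 2.4.6 and pandas 2.3.3. Calls follow the 10-point rule of both mutant against both wild-type libraries; binding means at least 50% in both. limma 3.58.1 (R 4.3.3), fitted to the percent values of all genes that varied among the 4 libraries with Benjamini-Hochberg adjustment, is an alternative and is the source of each adjusted p. Coverage and limma were tested on simulated data. Named genes were all members, *RPN4*, pathway genes past the rule, and *HDA1* and *TUP1* as label checks. *RPL11A*, *SXM1*, *UBI4* and the tRNA genes were chosen after their values were seen. Methods state that spike-in was added to all but H3ac ChIP-seq, which the labels do not; groups follow the labels. Depth is unknown, so no interval is given.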

Additional observations from a re-analysis of the deposited data

How the results depend on the processing

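The difference between core and regulatory genes kept its sign under every alternative. Over the first 500 bp it was 11.91 and 11.75 points for H4ac (with and without spike-in) and 22.56 for H3ac. With the gene table moved 200 bp toward lower coordinates it was 42.09, 39.08 and 23.38, and toward higher ones it was 42.83 for H3ac. Leaving out each library gave 45.93 to 46.54, 44.83 to 47.81 and 32.07 to 34.21.

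Counts of members called were small and moved with the settings. In all they were 8 gains and 6 losses in coding regions and 2 gains and 14 losses upstream. A margin of 25 points left 3 and 3, and 0 and 5, with 0, 1 or 2 members per comparison. limma left 5 and 5, and 0 and 6, again with 0, 1 or 2 where the count moved. Keeping only peaks with a −log10 q of at least 5 gave 0 losses for H4ac in *hda1∆* without spike-in and 2 for H3ac in *hda1∆*. Equal covered length left 7 gains and gave 11 losses in coding regions and 20 upstream. Losses of H3ac in *hda1∆* then rose to 5 and 8 and the gains fell to 1, H4ac losses without spike-in went to 0 in *hda1∆* and 1 in *tup1∆*, and *PUP3* reversed to -11.81 points. Over the first 500 bp there were 2 gains and 13 losses, with no gain of H4ac in *hda1∆* (0 and 0) and 5 and 7 H3ac losses in *hda1∆* and *tup1∆*. The absence of H4ac gains there does not test the whole-gene gains, because wild-type peaks left those genes no room for the 10-point margin. With spike-in they covered 97.8% and 96.4% at *PRE5*, 88.4% and 100% at *RPT3* and 100% at *RPN11*. Without spike-in they covered 100% at *PUP2*, *PRE2* and *RPT3* in both wild-type libraries. Moving the gene table down reversed *PRE5* (H4ac, *hda1∆*, spike-in set) to -3.05 points, and the counts it moved became 0 or 1, while moving it up gave 1, 2 or 3. The 200 bp upstream gave 1 for H4ac losses in *hda1∆* with spike-in, and 1 gain and 0 losses in *tup1∆* without.

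Leaving out 1 library can only add calls. Per comparison, coding gains ranged from 0 to 5 and losses from 0 to 7, and upstream gains from 0 to 3 and losses from 0 to 10. The 7 H3ac losses in *tup1∆* came without wild-type library 2, and the 10 in *hda1∆* without *hda1∆* library 1. Hda1-myc passed at 7 to 8 members with spike-in and 0 to 3 without. Any overlap gave 11 and 4, peaks with a −log10 q of at least 5 gave 2 in the spike-in set, and the gene table moved down gave 1. The cause of these shifts was not tested. *PUP1* and *RPN13* upstream and *RPN10* (H3ac, *tup1∆*) kept their calls under all 12 settings tried for each.

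Libraries of the same number did not deviate together (correlations of -0.025 to 0.078), so the numbers were not used to pair them. With the number as a block the calls were 10 gains and 9 losses in coding regions and 2 and 14 upstream, and H3ac losses in *hda1∆* went from 1 to 3.

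Depth is unknown, so an absent peak does not show an absent mark.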
